A study of Mus musculus with 12 samples.

Results

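Sites of nascent transcription initiation were examined at 10 mouse genes of the cohesin complex, out of 21938 protein-coding genes, in spermatocytes from 3 windows of meiotic prophase I. The rule names the genes by their function in cohesin and uses no measured value. They comprise 4 meiosis-specific subunits (Rec8, Rad21l, Smc1b and Stag3), 3 general subunits that also act in mitotic cells (Rad21, Smc3 and Stag1) and 3 regulators (Sgo2a, Wapl and Pds5b). A peak was assigned to a gene as proximal when its nearest edge lay under 1000 bp from any transcription start site (TSS) of that gene in GENCODE M21, an annotation of the mm10 genome. Peaks elsewhere within the gene were taken as gene-body peaks.

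Testis cells of adult wild-type mice (WT in the labels) were enriched for leptonema/zygonema (LZ), pachynema (P) or diplonema (D) by STAPUT, a sedimentation method that separates cells by size and density. The fractions are therefore enriched rather than pure, and the methods name C57Bl/6J or DBA/2J as the background of the mice without saying which was used here. Each substage had 4 libraries of leChRO-seq, a run-on assay that labels RNA still attached to engaged RNA polymerase, and the labels give no treatment or other genotype. The libraries of a substage were pooled before peaks were called with dREG, which finds promoters and enhancers from initiation on both strands, so each substage is represented by 1 list of peaks.

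With 1 pooled list per substage there is no replicate spread, and no difference between lists was tested. The lists held 71107 peaks in LZ, 68352 in P and 38603 in D. Each peak has a dREG score, an unscaled measure of how strongly the read pattern resembles initiation. The lists do not hold the number of reads behind a score. Because scores are not scaled between lists, each gene was also placed among all protein-coding genes of the same list by the highest score among its proximal peaks. This gene rank is a percentile from the lowest to the highest gene, with genes that lack a proximal peak tied at the bottom, at 19.9 in LZ, 19.8 in P and 24.2 in D. The lowest gene with a peak stood at 39.8, 39.5 and 48.4. In pooled cell fractions a lower value can come from fewer cells of a type, from less initiation per cell or from fewer reads, and these cannot be told apart.

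Cohesin is a ring of a pair of SMC ATPases closed by a kleisin, with a STAG protein bound to the kleisin, and it holds sister chromatids together. In germ cells entering meiosis, the kleisins REC8 and RAD21L, the ATPase SMC1β and the STAG protein STAG3 can take the places of their mitotic counterparts. SMC3 is common to all cohesin. Meiotic cohesin builds the chromosome axes on which homologs pair and recombine, and the cohesion that REC8 provides is laid down early and must last until the meiotic divisions.

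The reference sequence at the starts of the meiosis-specific genes shows what the peaks described later cover. Each window is 300 bases on GRCm38.p6 (the build of mm10), credited to RefSeq and written 5′ to 3′ on the strand of the gene. Capitals mark the MYB core motif (CNGTTG on either strand) and the E-box (CACGTG, which reads alike on both strands). Rec8 is at chr14:55617916-55618215 on the plus strand, Smc1b at chr15:85131908-85132207 on the minus strand and Stag3 at chr5:138280259-138280558 on the plus strand.
Rec8: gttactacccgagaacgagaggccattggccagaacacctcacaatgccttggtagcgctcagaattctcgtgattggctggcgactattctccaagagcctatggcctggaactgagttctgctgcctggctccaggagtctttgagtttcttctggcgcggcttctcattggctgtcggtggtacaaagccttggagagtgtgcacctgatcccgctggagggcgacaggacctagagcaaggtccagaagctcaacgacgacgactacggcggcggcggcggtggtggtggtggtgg
Smc1b: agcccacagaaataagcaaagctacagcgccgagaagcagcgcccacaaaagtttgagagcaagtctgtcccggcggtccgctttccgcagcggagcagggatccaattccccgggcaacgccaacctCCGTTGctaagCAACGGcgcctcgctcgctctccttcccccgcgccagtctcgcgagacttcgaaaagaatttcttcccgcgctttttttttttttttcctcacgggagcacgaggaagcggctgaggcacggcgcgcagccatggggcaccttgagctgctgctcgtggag
Stag3: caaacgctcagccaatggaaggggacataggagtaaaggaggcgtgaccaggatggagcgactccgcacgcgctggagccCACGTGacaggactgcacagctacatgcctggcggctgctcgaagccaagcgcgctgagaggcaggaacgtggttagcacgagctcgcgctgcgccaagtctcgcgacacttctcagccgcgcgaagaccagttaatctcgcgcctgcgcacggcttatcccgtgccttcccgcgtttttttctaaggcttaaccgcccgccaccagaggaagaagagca

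Rad21l is shown at 2 starts on the minus strand of chromosome 2, because its peaks lie at one and not at the other. The curated RefSeq start, which is also the GENCODE start, is covered by chr2:151668484-151668783. Predicted RefSeq transcripts start 2089 bp farther upstream, covered by chr2:151670573-151670872. Capitals again mark the E-box.
Rad21l curated start: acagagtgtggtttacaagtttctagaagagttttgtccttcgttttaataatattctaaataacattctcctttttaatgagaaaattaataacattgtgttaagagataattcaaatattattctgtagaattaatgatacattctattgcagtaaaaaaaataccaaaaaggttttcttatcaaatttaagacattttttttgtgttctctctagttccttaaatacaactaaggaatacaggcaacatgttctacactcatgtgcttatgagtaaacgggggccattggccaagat
Rad21l upstream start: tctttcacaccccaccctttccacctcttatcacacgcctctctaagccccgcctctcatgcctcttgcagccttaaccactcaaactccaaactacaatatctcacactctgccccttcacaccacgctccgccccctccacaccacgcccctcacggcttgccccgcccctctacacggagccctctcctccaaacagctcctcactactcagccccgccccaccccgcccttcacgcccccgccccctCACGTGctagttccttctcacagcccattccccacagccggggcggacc

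The Rec8 window lies entirely within proximal peaks in LZ and P, but only 125 of its 300 bases do so in D. All 300 bases of the Smc1b window were in peaks in every list. For Stag3 the number was 300 in LZ, 298 in P and 238 in D. No base of the AT-rich window at the curated Rad21l start was in a peak, whereas all 300 bases of the GC-rich upstream window were in peaks in LZ and P and none in D. The GC content of these Rad21l windows is 29.0% and 63.0%, with 2 and 15 CpG dinucleotides, against medians of 52.7% and 7 over all RefSeq promoters in the table.

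The Smc1b window holds 2 MYB core matches that face each other, CCGTTG and CAACGG, while the Rec8, Stag3 and Rad21l windows hold none. The E-box was found in the Stag3 window and in the upstream Rad21l window. Of 32851 promoters of the same length, 35% held a MYB core and 7.15% an E-box. Of the 9 cohesin genes with an entry in the promoter table, 3 had a MYB core (Smc1b, Wapl and Sgo2a, the last in the window of an upstream start without any peak) and 1 an E-box. The E2F core GCGGGA, searched on both strands like the motifs that follow, was present in 7 of 9 against 20% of promoters. The counts were 8 of 9 for the CCAAT box CCAAT against 37.4%, 6 of 9 for the GC box GGGCGG against 35.7% and 0 of 9 for the cyclic AMP response element TGACGTCA against 1.79%. Rad21l was counted by its curated start alone, with 1 CCAAT box and 0 GC boxes. The upstream start, which its LZ and P peaks cover, has 0 and 6. Sgo2a was counted by either of its windows, whereas the shares are of single promoters. The background is all promoters and was not matched on base composition. The windows of all 9 genes but Rad21l are richer in GC and CpG than its medians of 52.7% and 7, among them 75.7% and 41 for Pds5b, 73.7% and 43 for Stag1, 67.0% and 35 for Wapl, 65.0% and 32 for Smc3, 61.3% and 30 for Stag3 and 58.3% and 18 for Rec8. The part of base composition in these counts was not tested. These are matches of letters only, and no binding was measured. Rad21 was not in the promoter table used here.

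The lists were checked against marker genes of the cells a testis fraction can hold. All 6 leptonema/zygonema markers (among them the synaptonemal complex genes Sycp1 and Sycp3) and all 6 pachynema and diplonema markers (among them Mybl1 and Piwil1) had a proximal peak in every list. The summed highest scores in LZ, P and D were 7.101, 6.867 and 6.565 for the former and 6.973, 7.214 and 6.537 for the latter. These peaks mark germ cells but neither their presence nor these sums separate the substages. Single markers went both ways. In LZ, P and D the score was 1.106, 0.768 and 0.507 for Dmc1 and 1.110, 1.052 and 0.871 for Spo11. It was 1.030, 1.205 and 1.230 for Sycp3 and 0.796, 1.116 and 1.264 for Piwil1. Of 6 spermatid markers 5 had a peak in each list, with sums of 4.458, 4.266 and 3.864 and Tnp2 lacking one throughout. Prm1 and Prm2 had identical scores (0.676, 0.561 and 0.747), so that 1 peak may have been counted for both. Of 6 spermatogonial markers the number was 5 in LZ, 5 in P and 3 in D. Their summed highest scores were 4.625, 4.021 and 1.360, and Gfra1 had no peak in any list while Sohlh1 and Stra8 had none in D. Of 18 markers of Sertoli, Leydig, peritubular and macrophage cells, 1 had a proximal peak in LZ, 5 in P and 3 in D, with summed highest scores of 0.385, 2.462 and 1.169. The strongest was Sox9 in LZ (0.385), Cldn11 in P (0.695) and Sox9 in D (0.564). The Sertoli markers Amh, Rhox5 and Gata1, the Leydig markers Cyp17a1, Hsd3b1, Star and Insl3, and all peritubular and macrophage markers had no peak in any list. The part of other cells in the cohesin values was not tested.

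**Figure D1:**
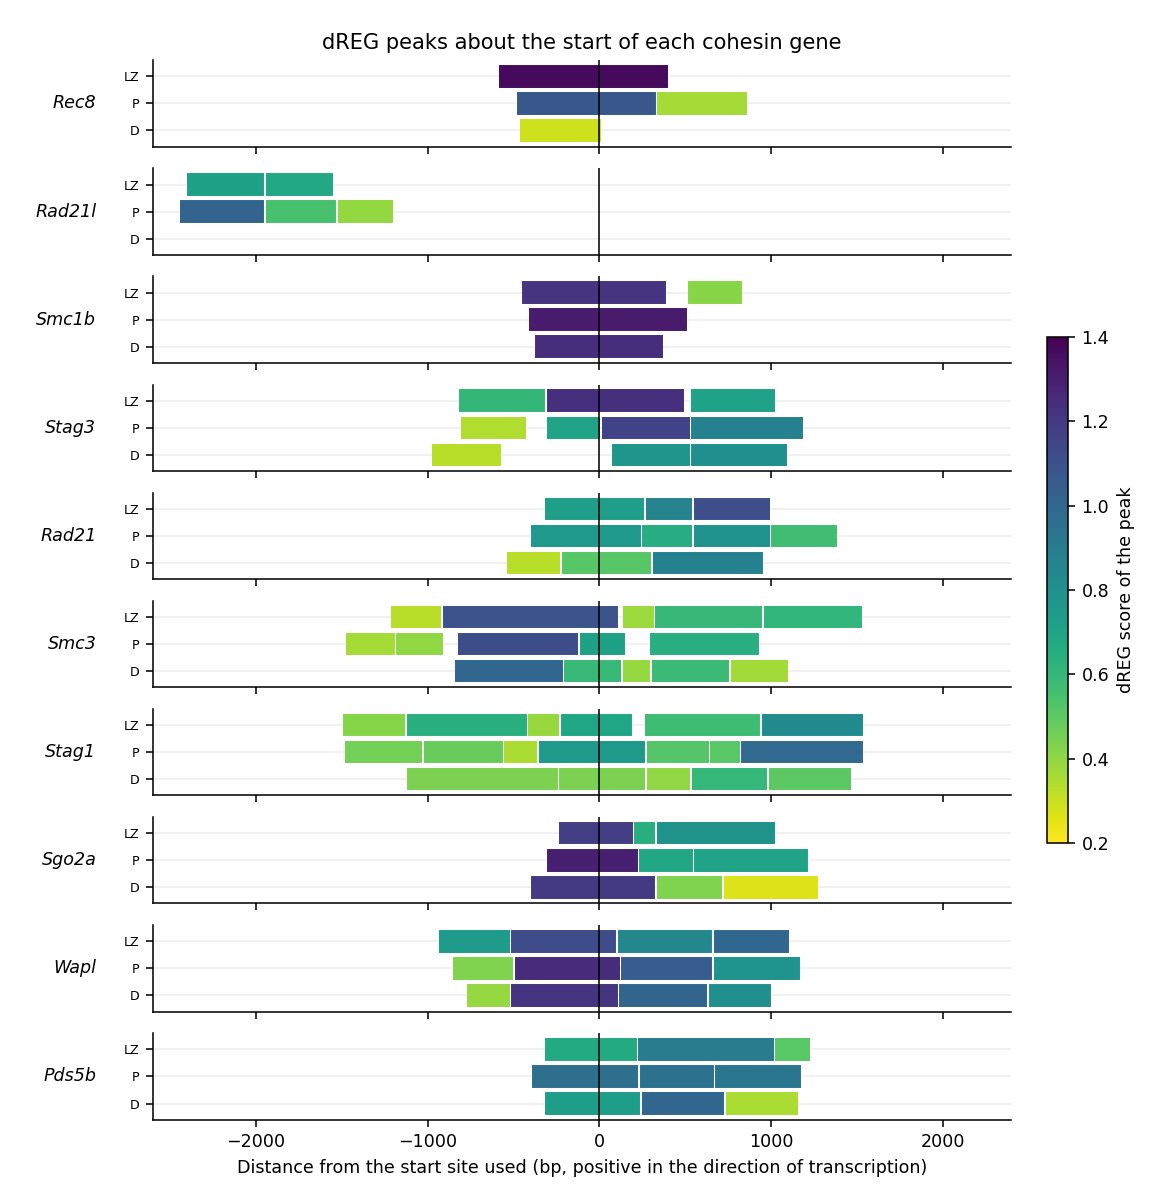
Each bar is a dREG peak of the LZ, P or D list, placed by its distance in bp from the start of the gene in the direction of transcription, with its dREG score in colour. The start is the most upstream GENCODE TSS with a proximal peak in every list, or for Rad21l its annotated start. The dark LZ bar at Rec8 (1.369) gives way to a pale one in D (0.292), Smc1b keeps a dark bar at its start, the Rad21l bars lie over 1000 bp upstream, and Smc3 and Stag1 carry rows of adjoining peaks.

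Of the 10 genes, 9 had a proximal peak in LZ, 9 in P and 9 in D, the same 9 each time. Among all protein-coding genes the share was 60.2% in LZ, 60.5% in P and 51.6% in D, and 49.5% had one in all 3 lists. The exception was Rad21l, which had none in any list. At a dREG score of at least 0.5 the count in D was 8, because the Rec8 peak (0.292) fell below that limit. The 9 genes carried 29 proximal peaks in LZ, 32 in P and 28 in D. Without peaks that have a closer TSS of another gene the numbers were 25, 28 and 25. Near the distance limit, the last peaks inside it belonged to Pds5b (944 bp, score 0.512) and Smc3 (963 bp, 0.612), both in LZ, and the next ones outside to Stag1 (1038 bp, 0.456 in P and 1138 bp, 0.417 in LZ) and Smc3 (1198 bp, 0.364 in P).

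Rec8, the kleisin that maintains meiotic cohesion, had the highest-scoring promoter peak of the 10 genes in LZ and the lowest of the 9 with a peak in D. Its highest score was 1.369 in LZ, 1.074 in P and 0.292 in D. The LZ peak at chr14:55617461-55618430 holds the TSS and spans 970 bp. In P the TSS peak spans 800 bp and a weak peak of score 0.361 follows it. In D the only peak left is the 460 bp at chr14:55617581-55618040, which ends short of the curated RefSeq start. Its deposited p-value is 0 in spite of the low score, as it is for 22% of the D peaks scored under 0.5, and how such zeros arise is not given in the sources used here. By gene rank Rec8 stood at 98.4 in LZ, 73.2 in P and 49.0 in D. It was gene 346 from the top of 13203 with a peak in LZ, gene 5861 of 13272 in P and gene 11179 of 11328 in D. The nearest TSS of another gene, that of Ipo4, lies 7917 bp or more from the centres of these peaks. When the scores of all proximal peaks were summed in place of taking the highest, Rec8 stood at 60.1 in LZ, 61.0 in P and 49.0 in D. In LZ this was the lowest of the 9 genes rather than the highest. The change in rank from LZ to P was then 0.9 points instead of -25.2, and that from LZ to D -11.1 instead of -49.4.

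Smc1b, which encodes the meiotic SMC1β ATPase, had a high-scoring peak in every list. Its highest score was 1.219 in LZ, 1.311 in P and 1.245 in D, always in a peak over the TSS. Its gene rank was 87.1, 96.8 and 98.7, the highest of the 10 genes in P and D, and in D it was gene 292 from the top. With summed scores it stood at 65.6, 58.4 and 72.2, the lowest of the 9 genes in P and, after Rec8, the next lowest in D. The change from LZ to P was then -7.3 points instead of 9.8, and that from LZ to D 6.5 instead of 11.6. This promoter is shared. The centre of the peak lies 128 bp from the TSS of the neighbouring gene Ribc2 in LZ and 158 bp in P and D, and initiation for Smc1b and Ribc2 cannot be told apart in a dREG peak.

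Stag3, the meiotic STAG subunit, had its highest score at 1.233 in LZ, 1.163 in P and 0.809 in D, and a gene rank of 88.6, 82.1 and 72.6. In LZ and P the strongest peak holds a TSS, but in D it is the peak at chr5:138280781-138281330, 225 bp past the nearest Stag3 TSS, with the TSS peak close behind at 0.771. Other starts lie close by. The centre of the strongest peak was 425 bp from the TSS of Gpc2, a glypican gene, in LZ and 545 bp in P, and the weakest Stag3 peak of each list was nearest to the TSS of Gm43720. With summed scores the change in rank from LZ to D was 1.2 points instead of -16.0, and that from LZ to P was 7.0 instead of -6.5.

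Rad21l, the second meiotic kleisin, had no peak within 1000 bp of its annotated start at chr2:151668533. Upstream of it, however, LZ had peaks of score 0.681 at 1558 bp and 0.715 at 1958 bp, and P had peaks of 0.396 at 1208 bp, 0.551 at 1538 bp and 1.016 at 1958 bp. The nearest D peak was 61258 bp away. The LZ peak at chr2:151670491-151670930 and the P peak at chr2:151670491-151670970 hold the predicted RefSeq start at 151670622. When all genes were ranked from RefSeq starts instead, a choice made after seeing these peaks, Rad21l had 2 proximal peaks in LZ, 3 in P and 0 in D, and stood at 53.2 in LZ and 69.0 in P among 21774 genes. The count of the 10 genes with a proximal peak was then 10 in LZ, 10 in P and 9 in D.

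**Figure D2:**
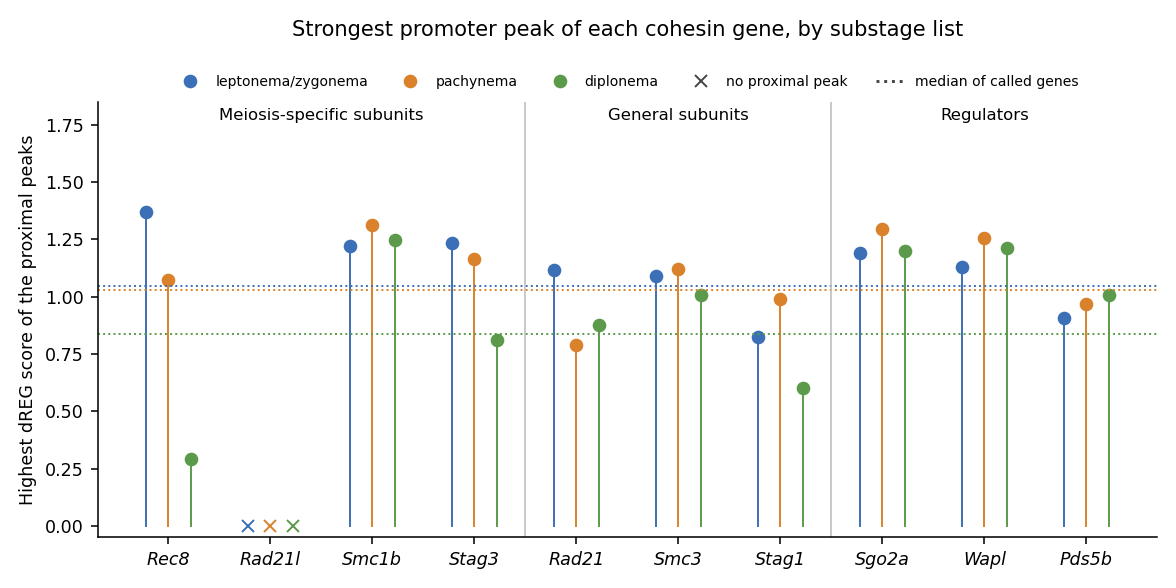
Points give the highest dREG score among the proximal peaks of each gene (y axis, no unit) in LZ, P and D, crosses mark genes without a proximal peak, and dotted lines give the median of all genes with one (1.048 in LZ, 1.030 in P and 0.835 in D). Rec8 spans the widest range, and the D point of Stag1 (0.602) is the lowest among the general subunits.

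By highest score the gene ranks of the general subunits ran from 56.8 to 85.4, and by summed score from 83.5 to 97.9. Rad21, the mitotic kleisin, had its highest score at 1.115 in LZ, 0.790 in P and 0.876 in D, and its gene rank was 75.8, 56.8 and 76.6. It was lowest in P. In each list the strongest Rad21 peak lay downstream of the TSS, with its near edge 320 bp away in LZ and P and 80 bp away in D. With summed scores the change in rank was 0.2 points from LZ to P and -5.2 from P to D, so that neither the lower P rank nor the higher D rank held under that choice.

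Smc3, the ATPase common to mitotic and meiotic cohesin, scored 1.091 in LZ, 1.120 in P and 1.007 in D, with gene ranks of 73.7, 77.6 and 85.4. With summed scores the change in rank from LZ to P was -1.8 points instead of 3.9, and that from LZ to D was 5.6 instead of 11.7. Its strongest peak is centred 408 to 458 bp upstream of the TSS. That peak lies closer to the Smc3 start than to the only other start nearby, that of the unclassified transcript AC137853.1. A weak peak also counted for Smc3 is centred 11 bp from the AC137853.1 start in LZ (score 0.329) and 31 bp in P (0.397).

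Stag1, which encodes a STAG subunit of somatic cohesin, scored 0.825 in LZ, 0.991 in P and 0.602 in D, with gene ranks of 57.3, 67.3 and 62.0. It was the lowest of the general subunits in LZ and D. With summed scores it stood at 93.2, 97.9 and 94.0, the highest of them in LZ and P, but with peaks limited to an edge under 500 bp from a TSS it stood at 52.9, 56.3 and 62.6. The change from P to D was then 6.3 points instead of -5.3, so its direction turned, and that from LZ to D was 9.6 instead of 4.7. All but 1 of its proximal peaks cluster at the curated RefSeq start, chr9:100643448, which lies 45650 bp downstream of the most upstream GENCODE start. At that upstream start the only peak was one of score 0.262 in P.

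By highest score the regulators were the group with the highest median rank in P and D. Sgo2a, the shugoshin that guards REC8 at meiotic centromeres, scored 1.189 in LZ, 1.295 in P and 1.198 in D in a peak over its TSS, with gene ranks of 83.8, 95.6 and 97.0. A curated RefSeq start of Sgo2a 10631 bp upstream had no base of its promoter window in a peak in any list. Wapl, which releases cohesin from chromosomes, scored 1.128, 1.254 and 1.214, with gene ranks of 77.0, 92.5 and 97.6. Its strongest peak is centred 37 to 47 bp from the start of 5830448L01Rik, annotated as a lncRNA of a bidirectional promoter, and the initiation of the pair cannot be told apart. When peaks with a closer TSS of another gene were left out, Wapl stood at 72.2, 76.0 and 88.4, so that the change from LZ to P was 3.9 points instead of 15.4 and that from P to D 12.3 instead of 5.2.

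Pds5b, an accessory protein that binds the kleisin together with WAPL, scored 0.906 in LZ, 0.967 in P and 1.009 in D, with gene ranks of 61.0, 65.7 and 85.5. By highest score it was the regulator with the lowest rank in every list. With summed scores the change from LZ to P was 13.1 points for Pds5b instead of 4.7, 0.4 for Sgo2a instead of 11.9 and -0.8 for Wapl instead of 15.4. From LZ to D it was -0.3 for Sgo2a instead of 13.2, 2.2 for Wapl instead of 20.6 and 13.4 for Pds5b instead of 24.5, and from P to D it was 0.3 for Pds5b instead of 19.8.

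**Figure D3:**
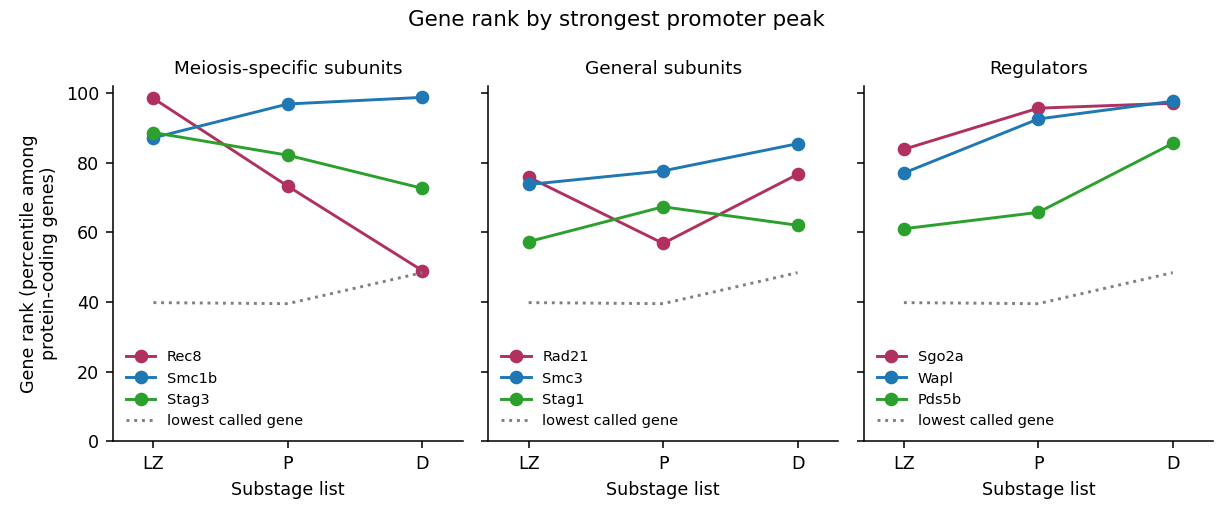
Lines join the gene rank (percentile among protein-coding genes by highest proximal score) of each gene in the LZ, P and D lists, with 1 panel per class, and the dotted line marks the lowest gene with a peak. Rec8 and Stag3 slope down, Smc1b and the regulators slope up, and Rec8 in D (49.0) sits just above the dotted line (48.4). Rad21l, with no proximal peak, is not drawn.

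The order of the classes differed between lists. The median gene rank of the 4 meiosis-specific subunits, with Rad21l at the tied bottom rank, was 87.9 in LZ, 77.7 in P and 60.8 in D. That of the 3 general subunits was 73.7, 67.3 and 76.6, and that of the 3 regulators 77.0, 92.5 and 97.0. The meiosis-specific median was thus 14.1 points above the general median in LZ, 10.4 above it in P and below it in D (-15.8). Without Rad21l, a choice made after seeing the data, these differences were 14.9, 14.8 and -4.0, so most of the D value rests on Rad21l. Summed scores turned the order in LZ and P, with differences of -29.4, -30.8 and -33.4. They also placed the general median above that of the regulators, at 92.3 against 87.1 in LZ and 94.0 against 90.3 in D, and by under 1 point in P. Without peaks that have a closer TSS of another gene the regulator median was 72.2 in LZ, 76.0 in P and 88.4 in D. It was then below the general median in LZ (78.1) and below the meiosis-specific median in P (81.6). The median of all genes with a peak was 69.9, 69.8 and 74.2. A median over 3 or 4 genes is set by 1 or 2 of them, and the genes are not replicates of a class.

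A summed score rises with the number of proximal peaks and a highest score does not. That number can depend on how many TSSs are annotated and on how dREG splits adjoining peaks. Stag1 has 14 TSSs, Stag3 8, Rec8 4, Smc3 3, and Smc1b and Rad21 2 each. The Stag3 peak at chr5:138279941-138280730 in LZ appears in P as chr5:138279941-138280240 and chr5:138280261-138280760. The part of either in the counts below was not tested. The 3 meiosis-specific genes with peaks had 6 proximal peaks in LZ, 7 in P and 5 in D, with a median of 2, 2 and 1 per gene. The 3 general genes had 13, 15 and 13, with a median of 5, 4 and 5. Among all genes with a proximal peak the median was 2 in each list, and 8.6% in LZ, 8.8% in P and 3.3% in D had 5 or more. The 3 regulators had 10 in each list, with a median of 3 per gene. Within the general class Smc3 had 5, 4 and 5 peaks and Stag1 5, 7 and 5, but Rad21 had 3, 4 and 3, the same as the meiosis-specific Stag3. The Smc3 count in LZ and P includes a peak at the AC137853.1 start, and the Stag3 count in each list a peak nearer to Gm43720. The median number of bases covered was 1130, 1310 and 730 for the meiosis-specific genes and 2500, 1820 and 1850 for the general genes, against 1490, 1520 and 1620 for the regulators and 1200, 1270 and 1070 for all. Rad21 covered fewer bases than Stag3 in LZ (1260 against 1760) and P (1710 against 1810) and more in D (1440 against 1380), and the general medians of coverage were those of Stag1 in LZ and Smc3 in P and D.

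The strongest peak was also placed against the TSSs of its gene. It held a TSS in 3 of 3 meiosis-specific genes in LZ, 3 of 3 in P and 2 of 3 in D. For the general genes the count was 1 of 3 in LZ (Smc3), 0 of 3 in P and 0 of 3 in D. For the regulators it was 2, 3 and 2 of 3. Among all genes with a peak the share was 82.7% in LZ, 81.4% in P and 81.8% in D. Rad21 and Stag1 did have a weaker peak over a TSS in each list. These counts can also depend on how dREG splits adjoining peaks. The strongest Smc3 peak was centred 408 bp upstream of the TSS in LZ and in D. It held the TSS only in LZ, where it spanned 1010 bp against 620 bp in D. For Pds5b in P the strongest peak held a TSS at a score of 0.967, beside peaks of 0.953 and 0.928 that did not.

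**Figure D4:**
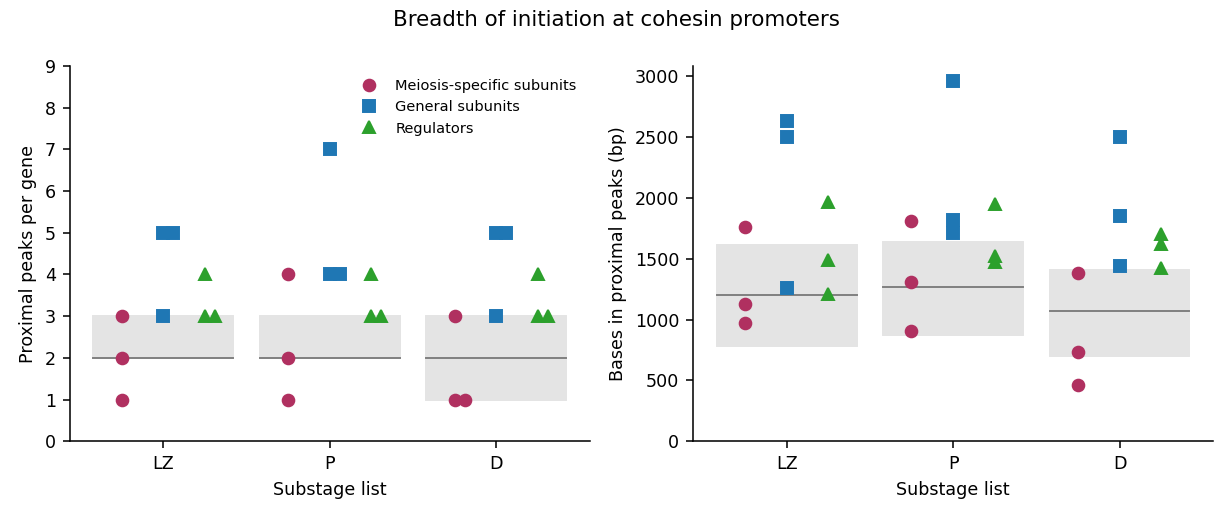
Points show the number of proximal peaks (left) and the bases they cover in bp (right) for the genes with a peak in LZ, P and D, by class. Grey boxes span the quartiles of all protein-coding genes with a proximal peak and the line is their median. General subunits lie at or above the top of the box for the number of peaks, and meiosis-specific subunits at 1 to 4 peaks.

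Changes in gene rank were counted when they reached 10 points in either direction. From LZ to P, 3 of the 9 genes with peaks in both lists moved up (Stag1 by 10.0, Sgo2a by 11.9 and Wapl by 15.4 points), beside 14.6% of all genes with a peak in both. Moves down were seen for 2 of 9 (Rec8, by -25.2 points, and Rad21, from 75.8 to 56.8), beside 14.5%. From P to D, 2 of 9 moved up (Rad21 and Pds5b, each by 19.8), beside 18.6%, and 1 of 9 moved down (Rec8, -24.2), beside 14.9%. Over the whole interval from LZ to D, 5 of 9 moved up (Smc1b, Smc3, Sgo2a, Wapl and Pds5b), beside 25.7%, and 2 of 9 moved down (Rec8, -49.4, and Stag3, -16.0), beside 20.2%. The change of Stag1 sits on the limit. It was 9.9 with RefSeq TSSs, 9.8 by peak centre, 9.7 with TSSs of protein-coding transcripts, 9.6 without peaks that have a closer TSS of another gene, 4.6 with summed scores and 3.3 at an edge under 500 bp. Without peaks that have a closer TSS of another gene, 0 of 9 moved up from LZ to P, 3 of 9 from P to D and 4 of 9 from LZ to D, beside 14.6%, 18.9% and 26.3% of all genes at that setting. With summed scores 1 of 9 moved up in each interval (Pds5b, Smc1b and Pds5b), beside 15.7%, 19.1% and 24.0%. Moves down were then 0 of 9 from LZ to P and 1 of 9 (Rec8) in each of the others, beside 15.9%, 16.1% and 18.9%. At a score of at least 0.5 Rec8 had no D peak. Moves down were then 0 of 8 from P to D, beside 13.6%, and 1 of 8 (Stag3) from LZ to D, beside 18.1%. With 8 or 9 genes these counts differ from the shares of all genes by a few genes at most.

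The median change of the 9 genes was 4.7 points from LZ to P, 1.8 from P to D and 11.6 from LZ to D, beside 0.1, 1.5 and 1.8 for all genes with a peak in both lists. With summed scores it was 0.4, -0.7 and 1.2, beside -0.1, 1.0 and 1.4 for all genes. By highest score, both genes that moved down over the whole interval are meiosis-specific and all 3 regulators moved up, but related genes outside the 10 did not all do so. Pds5a, the paralog of Pds5b, had gene ranks of 96.8, 92.0 and 73.5, and the shugoshin gene Sgo1 had 88.8, 77.8 and 73.1. Both were named after their values were seen. Among only the 10851 genes with a proximal peak in all 3 lists, Rec8 stood at 96.8 in LZ, 46.3 in P and 1.0 in D, and Stag3 at 77.4, 64.0 and 44.8. On that scale Smc1b stood at 74.2, 93.6 and 97.3. Moves of at least 10 points were then 4 of 9 up and 3 of 9 down from LZ to P, beside 26.5% and 26.0%. From P to D they were also 4 and 3 of 9, beside 30.7% and 27.7%. From LZ to D they were 5 and 2 of 9, beside 34.5% and 31.9%.

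The positions of the peaks were shared between the lists. Of the 29 LZ peaks, 93.1% overlapped a P peak by at least 1 bp and 93.1% a D peak, beside 89.2% and 70.1% of all proximal peaks in LZ. Of the 32 P peaks, 93.8% overlapped an LZ peak and 84.4% a D peak, beside 86.9% and 72.5%. All 28 D peaks overlapped an LZ peak, beside 90.4%, and 96.4% of them a P peak, beside 95.7%.

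The 10 genes had 5 gene-body peaks in LZ, 4 in P and 3 in D. With the lists cut to the size of the D list the counts were 1, 1 and 3, so the order between the substages turned. In the full lists 2 of the 10 genes had any in each list, beside 28.6% of all genes in LZ, 26.9% in P and 15.8% in D. All 12 lay in introns. The strongest was in Smc1b, 3.5 kb into the gene, at chr15:85128151-85128830 in LZ (score 0.996), chr15:85128241-85128690 in P (1.085) and chr15:85128281-85128570 in D (0.615). These overlap one another and lie at least 3134 bp from any Smc1b TSS, with centres at least 3608 bp from that of Ribc2, so an intronic site at Smc1b was called in every list.

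Smc1b had 2 gene-body peaks in each list, and 15.6% of genes of like length in LZ, 14% in P and 4.42% in D had more. Stag1, the longest of the 10 at 361.6 kb, had 3, 2 and 0, where genes of like length had a median of 4, 4 and 1. Wapl had 1 peak, in D only, of score 0.379. Pds5b, at 137.0 kb, had none in any list, while 74.1% of genes of like length had at least 1 in LZ, 71.5% in P and 46.3% in D. Genes of like length were those within a factor of 1.5.

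Among 21 other genes of the cohesin pathway, 20 had a proximal peak in LZ, 20 in P and 17 in D. Their median gene rank was 63.1, 77.8 and 70.1. Sgo2b, a paralog of Sgo2a, had no peak in any list. Nipbl, the cohesin loader, had gene ranks of 43.1 in LZ and 48.9 in P and had no proximal peak in D. The acetyltransferase gene Esco2 had gene ranks of 54.7 and 62.2, the CTCF paralog Ctcfl 62.9 and 52.3, and neither had a proximal peak in D.

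The 3 largest changes from LZ to P in this list were all upward. The next largest, that of Esco1, was downward, with gene ranks of 89.4 in LZ and 73.3 in P. Espl1, which encodes separase, had gene ranks of 68.5 in LZ and 93.4 in P. Haspin, a centromeric histone kinase, had 63.1 and 86.6, and Pttg1, which encodes the separase inhibitor securin, 55.6 and 78.9. Of the genes with peaks in both lists, 6 of 20 moved up by at least 10 points and 3 of 20 down from LZ to P, 4 and 4 of 17 from P to D, and 6 and 3 of 17 from LZ to D. The shares of all genes given for the 10 cohesin genes apply here too.

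The genes outside these lists whose gene ranks lay closest to the meiosis-specific median in the 3 lists together were Gnl3l (summed absolute difference 1.7 points), Scaf11 (2.5) and Pigh (2.6). Gnl3l, for example, stood at 88.4 in LZ, 78.2 in P and 60.2 in D.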

How the data were processed

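The series holds 12 leChRO-seq libraries of wild-type mouse spermatocytes, 4 per substage, and 3 dREG peak lists. Per the methods, the authors used PRINSEQ lite to collapse PCR duplicates on their molecular tags, cutadapt to remove adapters, BWA for alignment (mm10 plus 1 ribosomal repeat) and bedtools for signal tracks. The submitters' processing notes also name the last 3 tools and mm10. For the leChRO-seq steps, versions of these tools and of dREG are not given in the sources used here. The labels call the reads single-end and the methods paired-end. The authors pooled the 4 libraries of a substage before calling peaks. They deposited for every peak a dREG score, which is not scaled between lists, a p-value, whose adjustment is not given in the sources used here, and a peak centre position. The lists hold no read counts. Sequencing depth was not derived here for the pooled lists, and no interval on a score was made.

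Deposited positions were used as given. Proximal peaks had an edge under 1000 bp from a GENCODE M21 TSS of the gene, and genes were ranked on 21 chromosomes by highest proximal dREG score with mid-ranks for ties. Moves of at least 10 points among genes called in both lists were counted. No test was made. Alternatives changed the TSS set, the distance, the score or p-value limit, the list size and the score used for ranking. All 10 members are named, as are pathway genes without a proximal peak in at least 1 list, the 3 pathway genes with the largest rank change from LZ to P, and the 3 genes closest to the meiosis-specific median. Members and lists were chosen with earlier results of these data known. The rules and the motif search were tested on simulated data. Analyses used Python 3.11.15, numpy 2.4.6 and matplotlib 3.10.9.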

Additional observations from a re-analysis of the deposited data

How the results depend on the processing

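Of 116 recomputed values of the comparisons, 95 stayed close to the reported value, 19 moved and 2 reversed. Close meant a count within a factor of 1.5, or a rank, rank change or difference in median rank within 0.662 points. That fixed limit is a 95% counting half-interval for a single rank, and it measures no spread between libraries. Many of the comparisons are counts, which have no direction, and a factor of 1.5 is wide for small counts. A count that stayed can also hide changes in its genes. With summed scores 6 members ranked higher in P than in LZ, as by highest score, although 6 of those rank changes had turned sign. For single genes, 364 of 537 stayed, 167 moved and 6 reversed, where a reversal is a change of sign in a rank change of at least 10 points. The sign turned in 12 rank changes of any size, 11 under summed scores and 1 at an edge under 500 bp (Stag1, 6.3 from P to D instead of -5.3). The difference in median rank, meiosis-specific minus general, was with summed scores -29.4 in LZ and -30.8 in P, turning the order, and -33.4 in D. Of the changes of at least 10 points, summed scores turned those of Rad21 (0.2 from LZ to P, -5.2 from P to D), Rec8 (0.9 from LZ to P), Sgo2a (-0.3 from LZ to D), Stag3 (1.2 from LZ to D) and Wapl (-0.8 from LZ to P), and of the smaller ones those of Smc1b (-7.3 instead of 9.8), Stag3 (7.0 instead of -6.5) and Smc3 (-1.8 instead of 3.9) from LZ to P, Rad21 from LZ to D (-4.9 instead of 0.8) and Sgo2a from P to D (-0.7 instead of 1.3). The cause was not tested. Among genes called in all 3 lists the difference was 29.2 in LZ, 29.3 in P and -8.0 in D. Without members that have no peak it was 14.9, 14.8 and -4.0. Leaving out peaks with a closer TSS of another gene gave 12.0 in LZ and 9.4 in P, an edge under 500 bp gave 20.4 in P, and in D a score of at least 0.5 gave -25.9 and a p-value of at most 0.01 gave -14.9, with Rec8 retained through its listed p of 0. At a score of at least 0.5 the gene-body peaks numbered 1 in LZ, 1 in P and 1 in D and the proximal peaks in D 16. Lists cut to 38603 peaks each held 1 gene-body peak in LZ and 1 in P against 3 in D, which turns their order, and a p-value of at most 0.01 left 3 in LZ. RefSeq TSSs and the setting without members that have no peak were chosen after seeing the data. No paired analysis was possible because the libraries of a substage were pooled before peak calling, which also meant that no library could be left out in turn. Depth was not compared between lists.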

Other observations

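Away from every GENCODE TSS, within 50 kb of the most upstream start of each gene, Stag1 had 6 distal peaks in LZ, 3 in P and 0 in D. The Stag1 window is centred 45650 bp upstream of the start where most of its proximal peaks cluster, so it reaches little beyond that start. Sgo2a had 5, 3 and 2, and Rad21 4, 4 and 2. Smc1b had 2 in each list, all of them the gene-body peaks described above, and 1 of the Stag1 peaks in LZ and 1 in P are gene-body peaks as well. Rad21l had 2, 3 and 0, which are its upstream peaks described above, among them those over the predicted RefSeq start. Stag3 had 0, 1 and 0, Smc3 0, 0 and 1, and Wapl 0, 0 and 1, the last a gene-body peak. Rec8 and Pds5b had none in any list. The median over all protein-coding genes was 1, 1 and 0. Which gene a distal peak acts on was not measured.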
